A study of Mus musculus with 6 samples.

Results

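The collagen genes were followed across 6 RNA-seq libraries from cultures of mouse acini, in which the exocrine pancreas makes its digestive enzymes. A gene was a member when the deposited table listed it as protein coding and its symbol had the form Col, a number, a and a number, which gave 44 of the 56953 genes. Acini were embedded in Matrigel-GFR, a protein matrix, and harvested on day 3 of culture. In this ex vivo assay of acinar-to-ductal metaplasia (ADM), acinar cells give up secretory features and organise into duct-like structures. WT 1 and WT 2 came from untreated wild-type acini, at labelled ages of 10 and 11 weeks. DD 1 and DD 2 came from untreated acini of Dkk3 knockout mice, at 12 and 13 weeks. DD + rDKK3 1 and DD + rDKK3 2 came from Dkk3 knockout acini given recombinant DKK3, the secreted glycoprotein that these mice lack, at 14 and 15 weeks. Age and group therefore cannot be told apart. The WT 2 mouse was labelled female and the other 5 samples male. All cultures shared a Waymouth-based medium with serum, trypsin inhibitor and dexamethasone. The knockout is constitutive, so every cell type left in an acinar preparation carried it, and the mouse strain is not given in the sources used here. Groups held 2 libraries each. Within each group the labelled ages differ, and in WT the sex too, but no label names an animal. The ages rise from library to library in listed order, from 10 to 15 weeks. They do not settle which samples came from different mice. P-values therefore measure only the spread between these libraries, and how much of it is technical is not known.

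Collagens are secreted proteins whose chains wind into a triple helix. Fibrillar collagens such as types I, III and V assemble into the fibrils of interstitial connective tissue, while type IV collagen forms the sheet-like network of basement membranes on which epithelial cells sit. FACIT collagens decorate fibrils, type VI forms beaded microfibrils, and multiplexins (types XV and XVIII) lie in or near basement membranes. In the pancreas, interstitial collagen is made mainly by fibroblasts and stellate cells, and basement membrane collagen by epithelial, endothelial and stromal cells. The counts measure RNA in the harvested cells and not the protein of the surrounding matrix.

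The libraries held between 12018473 and 19750401 counts. DD 2 and DD + rDKK3 2 stood apart from the other 4 on the first principal component of log2 CPM (42.3% of the variance), and WT 1 on the second (32.3%). Acinar markers were abundant in every library, with a summed level of 10 markers between 86900 and 144900 CPM, the depth-scaled count of a gene, so the labelled cell type was present throughout. The DD libraries could not be checked through Dkk3 itself, because a gene-level count does not show the deleted exon. Medians that rest on DD 2 or DD + rDKK3 2 are given below with and without them.

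Of the 44 collagen genes, 21 passed the filter on low counts and were tested, 18 had some counts but did not pass, and 5 had 0 counts in all 6 libraries. Those tested were 7 of 11 fibrillar, 4 of 6 basement membrane, 3 of 6 microfibrillar, 2 of 9 FACIT, 2 of 2 multiplexin, 1 of 4 transmembrane and 2 of 6 network-forming, anchoring or remaining collagens. The 5 genes without counts were Col2a1, which encodes the fibrillar collagen of cartilage, Col9a1, Col19a1, Col6a4 and Col6a5. A count of 0 allows up to 3 counts in a library, or between 0.142 and 0.295 CPM here, which covers counting error only. The 18 genes below the filter reached at most 22 counts in 1 library, for Col23a1 in DD 2, and at most 46 counts over all 6. They included Col4a3 and Col4a4, the chains of specialised basement membranes in kidney and lung (15 and 18 counts in all), Col11a1 (19), Col14a1 (9), Col10a1 (3), known from hypertrophic cartilage, and Col17a1 (3), a hemidesmosome collagen of skin. A gene passes the filter when enough libraries hold it, so counts and medians over the 21 tested genes describe those genes and are no support for a direction over all 44.

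The promoters of 4 tested members are shown because their genes took different courses over the libraries: Col1a1 and Col3a1, encoding chains of the main interstitial fibrils, were highest in DD 2 and DD + rDKK3 2, while Col4a5 and Col7a1 were not. They were chosen after the values were seen. Each line gives the 250 bases before the annotated start of the canonical transcript (GENCODE M39 on GRCm39), 5′ to 3′ on the strand of the gene. Capitals mark CCAAT, the box bound by NF-Y, GGGCGG, the GC box bound by Sp1, and TATAAA, each searched on both strands, so that ATTGG is a CCAAT box on the other strand. The windows lie on the plus strand at chr11:94826800-94827049 for Col1a1, chr1:45350448-45350697 for Col3a1, chrX:140258104-140258353 for Col4a5 and chr9:108782397-108782646 for Col7a1.
Col1a1: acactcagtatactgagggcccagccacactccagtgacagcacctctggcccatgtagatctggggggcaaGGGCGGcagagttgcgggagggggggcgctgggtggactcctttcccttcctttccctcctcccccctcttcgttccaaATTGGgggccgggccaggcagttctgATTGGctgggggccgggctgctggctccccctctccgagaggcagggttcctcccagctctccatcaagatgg
Col3a1: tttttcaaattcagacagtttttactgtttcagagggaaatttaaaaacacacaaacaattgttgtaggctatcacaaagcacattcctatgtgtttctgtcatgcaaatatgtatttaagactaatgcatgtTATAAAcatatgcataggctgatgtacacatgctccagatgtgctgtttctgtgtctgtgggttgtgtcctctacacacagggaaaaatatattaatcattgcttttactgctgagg
Col4a5: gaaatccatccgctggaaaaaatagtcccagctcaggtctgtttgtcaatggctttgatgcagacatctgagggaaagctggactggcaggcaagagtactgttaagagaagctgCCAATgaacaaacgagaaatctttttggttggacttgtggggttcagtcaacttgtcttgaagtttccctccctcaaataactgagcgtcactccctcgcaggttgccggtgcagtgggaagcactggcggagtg
Col7a1: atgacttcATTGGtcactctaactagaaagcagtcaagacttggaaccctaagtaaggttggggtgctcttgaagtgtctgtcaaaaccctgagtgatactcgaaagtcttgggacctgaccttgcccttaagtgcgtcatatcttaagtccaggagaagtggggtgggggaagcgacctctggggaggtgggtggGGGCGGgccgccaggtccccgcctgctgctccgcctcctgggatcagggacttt

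The Col1a1 window held 2 CCAAT boxes and 1 GC box in 64.8% GC, the Col3a1 window 1 TATAAA in 35.2% GC, the Col4a5 window 1 CCAAT box in 49.6% GC, and the Col7a1 window 1 CCAAT box and 1 GC box in 55.6% GC. The windows of Col1a1 and Col3a1 thus shared none of the 3 motifs. Over all 21 tested collagens, 38.1% of windows held CCAAT, 47.6% GGGCGG and 9.52% TATAAA, beside 36.5%, 36.3% and 11.9% of 21770 promoters of protein coding genes. The letters TGANTCA, which cover the AP-1 core bound by Fos and Jun dimers, were in 0 of the 44 collagen windows and in 6.17% of all windows, which says nothing of elements outside these 250 bases. Some collagen genes are neighbours: Col4a1 and Col4a2 on chromosome 8 point away from each other and their listed spans overlap by 22 bases (counting used strand), Col4a5 and Col4a6 on chromosome X lie 1308 bases apart in the same arrangement, and Col3a1 and Col5a2 lie 24614 bases apart on chromosome 1.

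**Figure D1:**
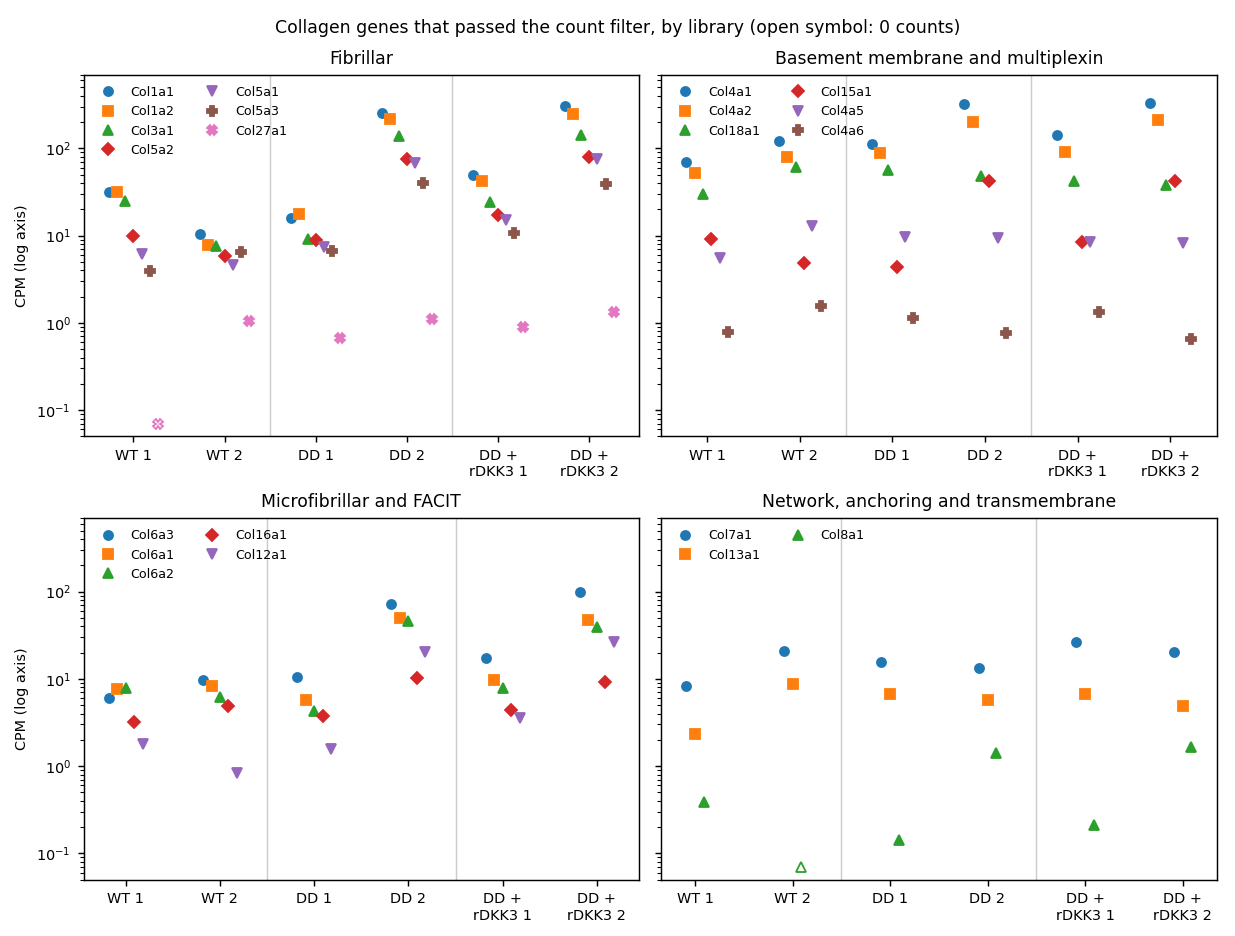
CPM (log axis) of the 21 collagen genes that passed the filter, in each of the 6 libraries, in 4 panels by class. Filled symbols are single libraries, and open symbols at the bottom mark 0 counts (Col27a1 in WT 1, Col8a1 in WT 2). All but Col18a1, Col4a5, Col4a6, Col7a1 and Col13a1 stand highest in DD 2 and DD + rDKK3 2, the basement membrane genes Col4a1 and Col4a2 among them.

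Per length, type IV and type I chains were the most abundant collagen RNAs. Averaged over the 6 libraries, Col4a1 stood at 27.7 RPKM (counts per kilobase of exon, scaled to depth), Col1a1 at 18.7, Col4a2 at 17.1, Col1a2 at 16.5, Col3a1 at 9.74 and Col18a1 at 6.72, and the other 15 tested genes at 5.2 or below. The order was not the same in every library. In WT 2, Col4a1 (18.3 RPKM), Col4a2 (11.4) and Col18a1 (9.02) led and Col1a1 stood at 1.78, while in DD + rDKK3 2 Col1a1 (51.3) and Col4a1 (50.2) were level.

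Among the fibrillar collagens, Col1a1 (chr11:94827050-94843868), the major chain of type I collagen, stood at 31.9 and 10.5 CPM for WT, 15.9 and 252 for DD, and 49.8 and 305 for DD + rDKK3. DD 2 and DD + rDKK3 2 were thus far above the other 4 libraries, and DD 1 lay within the WT range. The group means were 21.2 ± 15.1 CPM (SD, n = 2) in WT, 134 ± 167 for DD and 177 ± 180 for DD + rDKK3, with SDs in the knockout groups as large as their means. Col1a2, which encodes the partner chain, stood at 31.9 and 7.80 CPM for WT, 17.7 and 219 for DD, and 42.4 and 248 for DD + rDKK3. Col3a1, the collagen that co-assembles with type I in distensible tissue, stood at 25.0 and 7.59 CPM for WT, 9.18 and 140 for DD, and 24.0 and 142 for DD + rDKK3. For all 3 genes WT 1 was above WT 2 and DD 1 lay between the WT libraries.

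Type V collagen, which nucleates fibrils and sets their width, showed the same 2 high libraries. Col5a1 stood at 6.09 and 4.57 CPM for WT, 7.43 and 68.3 for DD, and 15.0 and 75.5 for DD + rDKK3, so that every knockout library was above both WT libraries. Col5a2 stood at 9.92 and 5.90 CPM for WT, 8.80 and 75.7 for DD, and 17.3 and 79.0 for DD + rDKK3. Col5a3 stood at 3.93 and 6.46 CPM for WT, 6.67 and 39.7 for DD, and 10.7 and 39.3 for DD + rDKK3. DD 1 was just above both WT libraries for Col5a1 and Col5a3 and below WT 1 for Col5a2. Col27a1, a minor fibrillar collagen, had 0 counts in WT 1 and at most 25 elsewhere. Across the 7 tested fibrillar genes, DD 2 was a median of 9.19-fold above DD 1 and DD + rDKK3 2 a median of 5.03-fold above DD + rDKK3 1, while WT 2 stood at a median of 0.595 times WT 1. Over all genes tested these medians were 0.985, 1.00 and 1.00.

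The basement membrane collagens split into 2 pairs. Col4a1 (chr8:11248423-11362826) and Col4a2 encode the chains of the common type IV network. Col4a1 stood at 70.5 and 121 CPM for WT, 112 and 324 for DD, and 141 and 332 for DD + rDKK3. WT 1 was lowest and the 2 high libraries were again DD 2 and DD + rDKK3 2. Col4a2 had group means of 66.2 ± 19.3 CPM for WT, 143 ± 78.3 for DD and 151 ± 85.5 for DD + rDKK3 (SD, n = 2), and its DD libraries did not overlap with WT. Col4a5, an X-linked chain of another type IV network, stood at 5.50 and 12.9 CPM for WT, 9.56 and 9.29 for DD, and 8.34 and 8.23 for DD + rDKK3. The 4 knockout libraries lay between the 2 WT libraries, with an SD of 0.192 CPM for DD and 0.0819 for DD + rDKK3. Col4a6, its partner chain, had between 8 and 24 counts in the WT and DD libraries and 25 and 12 for DD + rDKK3, and stayed at or under 1.55 CPM.

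Type VI collagen, which forms beaded microfibrils around cells, followed the fibrillar genes. Col6a3 stood at 6.09 and 9.76 CPM for WT, 10.4 and 72.8 for DD, and 17.5 and 100 for DD + rDKK3. Col6a1 stood at 7.56 and 8.29 CPM for WT, 5.77 and 49.5 for DD, and 9.82 and 47.1 for DD + rDKK3, and Col6a2 at 7.96 and 6.25, 4.31 and 45.9, and 7.82 and 39.0. For Col6a1 and Col6a2, DD 1 was the lowest of the 6 libraries. Of the FACIT collagens, which bind to fibril surfaces, Col12a1 stood at 1.77 and 0.843 CPM for WT, 1.56 and 20.3 for DD, and 3.54 and 26.2 for DD + rDKK3, a 13.0-fold step from DD 1 to DD 2. Col16a1 differed less, at a mean of 4.04 ± 1.13 CPM for WT, 6.95 ± 4.55 for DD and 6.79 ± 3.40 for DD + rDKK3 (SD, n = 2).

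The multiplexins went separate ways. Col15a1 stood at 9.04 and 4.85 CPM for WT, 4.31 and 41.9 for DD, and 8.40 and 42.3 for DD + rDKK3, as the fibrillar genes did. Col18a1, whose protein carries the endostatin domain, stood at 29.6 and 61.7 CPM for WT, 56.7 and 47.9 for DD, and 42.0 and 37.6 for DD + rDKK3. WT 1 was lowest, WT 2 highest, and both DD libraries were above both DD + rDKK3 libraries. Col7a1 (chr9:108782654-108813943), the chain of the anchoring fibrils that tie epithelia to the stroma below, stood at 8.35 and 20.8 CPM for WT, 15.8 and 13.2 for DD, and 26.5 and 20.1 for DD + rDKK3, so that the treated libraries were above the untreated DD libraries. Col13a1, a transmembrane collagen of cell contacts, stood at 2.36 and 8.71 CPM for WT, 6.63 and 5.70 for DD, and 6.76 and 4.89 for DD + rDKK3. Col8a1, a network collagen of vessel walls, had 24 counts in DD 2, 31 in DD + rDKK3 2 and at most 4 in any other library.

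In all, 16 of the 21 tested collagens (76.2%) were higher in DD 2 and in DD + rDKK3 2 than in each of the other 4 libraries, against 10.5% of all genes tested. The 5 others were Col4a5, Col4a6, Col7a1, Col13a1 and Col18a1. Col8a1, among the 16, passed the filter only through DD 2 and DD + rDKK3 2, so its place there is no support. WT 1 was the lowest library for 10 tested collagens, Col4a1, Col4a2, Col4a5, Col7a1, Col13a1, Col18a1 and the interstitial Col5a3, Col27a1, Col6a3 and Col16a1 (30.5% of all genes tested). WT 2 was the lowest for 7, Col1a1, Col1a2, Col3a1, Col5a1, Col5a2, Col12a1 and Col8a1 (13.2% of all genes tested).

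**Figure D2:**
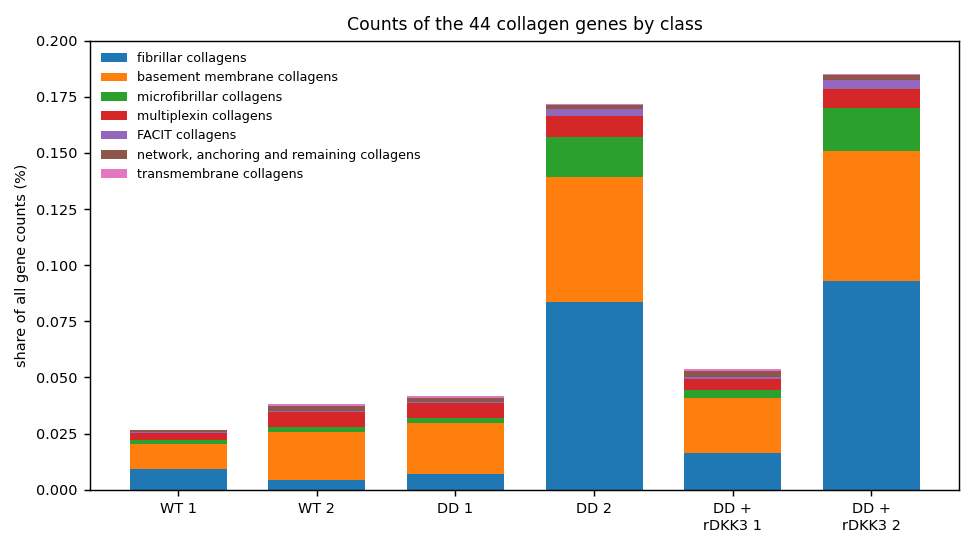
Share of all gene counts (%) taken by the 44 collagen genes in each library, stacked by class. The total is 0.172% in DD 2 and 0.185% in DD + rDKK3 2 and at most 0.0538% in the other 4 libraries.

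Collagen genes took a small share of the transcriptome. Together the 44 genes held 0.0268% (95% Clopper-Pearson interval 0.0258 to 0.0277) and 0.0383% (0.0373 to 0.0393) of counts in WT 1 and WT 2. They held 0.0415% (0.0406 to 0.0424) and 0.172% (0.170 to 0.174) for DD 1 and DD 2, and 0.0538% (0.0528 to 0.0549) and 0.185% (0.183 to 0.187) for the 2 treated libraries. These intervals cover counting error only and are far narrower than the gap between libraries of 1 group, with an SD of 0.0923 percentage points around a mean of 0.107% in DD. The makeup of the collagen counts moved too. Fibrillar genes made up 48.6% and 50.2% of collagen counts in DD 2 and DD + rDKK3 2, 34.4% in WT 1, 30.2% in DD + rDKK3 1, 17.1% in DD 1 and 11.4% in WT 2. Basement membrane genes ran the other way, at 32.5% and 31.2% in the 2 high libraries and 55.7% in WT 2, although their own share of all counts was also highest in DD 2 (0.0558%) and DD + rDKK3 2 (0.0577%).

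Ratios between chains were taken per length. Col1a1 stood at 0.961 and 1.30 times Col1a2 for WT, 0.866 and 1.11 for DD, and 1.13 and 1.18 for DD + rDKK3. Col4a1 stood at 1.42 and 1.61 times Col4a2 for WT, 1.35 and 1.73 for DD, and 1.65 and 1.66 for DD + rDKK3. In the first ratio WT overlapped with both other groups and both treated libraries lay just above both DD libraries, and in the second DD overlapped with both other groups and both treated libraries lay above both WT libraries. In type V, Col5a1 stood between 0.588 (WT 1) and 0.916 (DD + rDKK3 2) times Col5a2. In type VI, Col6a1 stood between 2.15 (WT 1) and 3.03 (DD 1) times Col6a2, while Col6a3 ranged from 0.302 (WT 1) to 0.80 (DD + rDKK3 2) times Col6a1. Lengths joined the exons of a gene's annotated transcripts, 4100 bases for Col6a1 and 9254 for Col6a2. The level of their ratio therefore depends on the annotation and shows no excess of Col6a1 RNA. The counts themselves were closer, at 77 and 81 in WT 1 and 122 and 91 in DD 1. Between types, the ratio of Col4a1 to Col1a1 was 1.98 and 10.3 for WT, 6.32 and 1.15 for DD, and 2.54 and 0.978 for DD + rDKK3. The ratio of Col18a1 to Col15a1 was 3.17 and 12.3 for WT, 12.7 and 1.11 for DD, and 4.85 and 0.861 for DD + rDKK3. Both of these ratios were highest in WT 2 and DD 1 and lowest in DD 2 and DD + rDKK3 2. Col3a1 stood at 0.779 and 0.718 times Col1a1 for WT, 0.576 and 0.555 for DD, and 0.480 and 0.464 for DD + rDKK3, an order of the groups with no overlap that was chosen after its values were seen, and counting intervals of WT 2 (0.555 to 0.925) and DD 1 (0.480 to 0.689) overlapped.

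**Figure D3:**
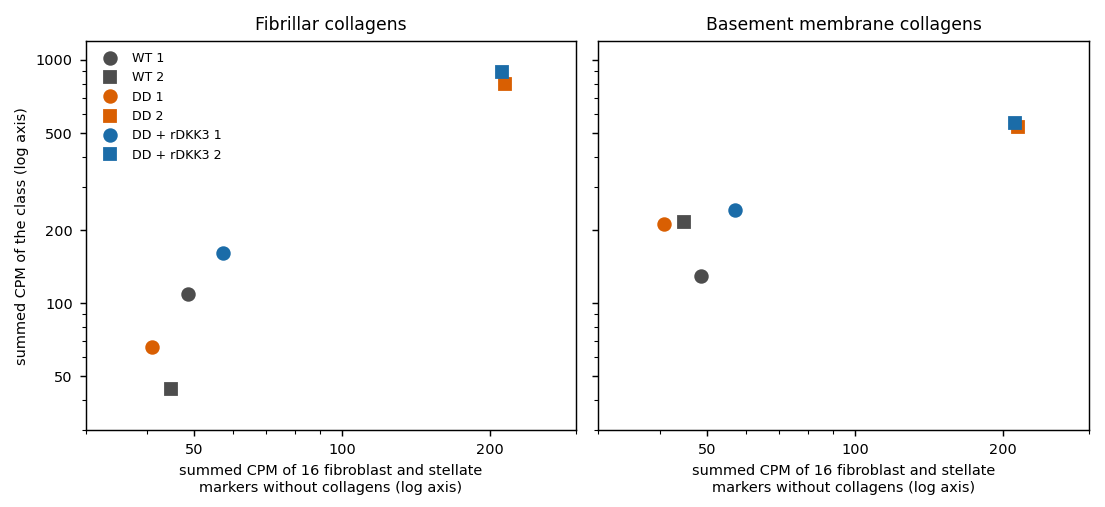
Summed CPM of the fibrillar (left) and basement membrane (right) collagens against the summed CPM of 16 fibroblast and stellate cell markers that are not collagens, both on log axes. Each point is a library, coloured by group and with circles for number 1 and squares for number 2. DD 2 and DD + rDKK3 2 lie apart at the upper right of both panels.

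Most fibroblast and stellate markers moved with the fibrillar collagens. The 16 fibroblast and stellate markers without collagens, among them Pdgfra, Pdgfrb, Dcn, Lum and Postn, summed to 48.4 and 44.7 CPM for WT, 40.9 and 214 for DD, and 57.0 and 211 for DD + rDKK3. The fibrillar genes summed to 109 and 44.3 CPM for WT, 66.4 and 797 for DD, and 160 and 890 for DD + rDKK3. Of the 16 markers, 14 passed the filter, and none had 0 counts in every library. DD 2 and DD + rDKK3 2 were the 2 highest libraries for 12 of the 16 (10.5% of all genes tested). Fap, 1 of the 12, did not pass the filter (at most 16 counts). Those outside the 12 were Des and Rgs5, both highest in WT 2 (2.32 and 10.2 CPM), Tagln, at 6.29 CPM in DD + rDKK3 2 and 6.95 in WT 2, and Gli1, which had 0 counts in DD 2. The 8 macrophage markers summed were also highest in DD 2 and DD + rDKK3 2 (239 and 184 CPM, against 57.3 to 116 in the other 4). Lyz2 alone gave 133 and 85.4 CPM of those 2 sums. The 2 libraries were the highest for 5 of the 8 markers (10.5% of all genes tested), and not for C1qa, Cd68 and Fcgr1. The 8 endothelial markers were between 77.6 and 132 CPM, the 6 mesothelial markers between 8.5 and 35.2, with the highest value in DD 2, and the 6 Schwann cell markers at or under 1.41. DD 2 and DD + rDKK3 2 were the 2 highest libraries for 2 of the 8 endothelial markers. They were so for 1 of the 6 mesothelial markers, Wt1 (at most 32 counts), and for 0 of the 6 Schwann cell markers. In bulk samples such as these, more cells of a type and more RNA per cell cannot be told apart. The part of these cells in the collagen levels was not tested.

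**Figure D4:**
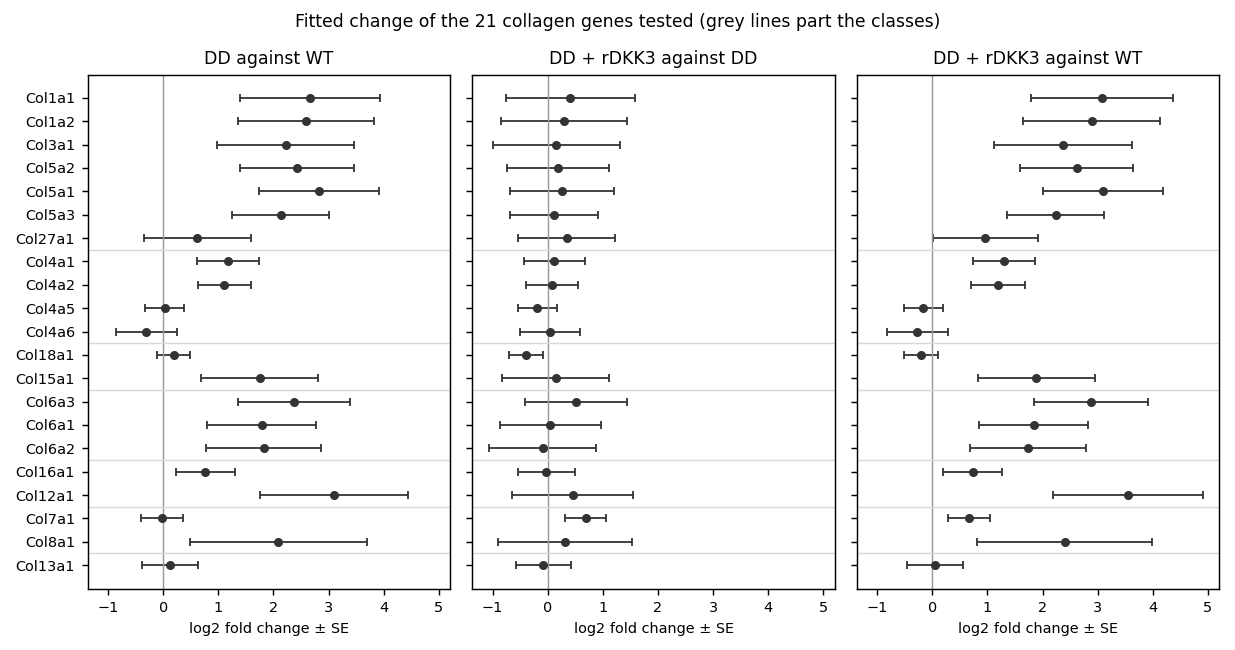
Fitted log2 fold change with its SE (edgeR, 2 libraries per group) of the 21 tested collagens in the 3 comparisons, with genes of a class between grey lines. Interstitial collagens lie above 0 in the comparisons with WT with wide SEs, and most lie near 0 in DD + rDKK3 against DD.

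DD was compared with WT to ask how loss of DKK3 alters acini during ADM. Fibrillar and microfibrillar collagens were higher on average in DD, by fitted log2 fold changes of 2.13 to 2.83 for types I, III and V and 1.79 to 2.37 for type VI. No collagen passed the test with the filter on low counts and no block. At an adjusted p under 0.05 (edgeR quasi-likelihood F-test, Benjamini-Hochberg over 14738 genes), 0 of 21 tested collagens were called, beside 0.0407% of all genes tested. At an unadjusted p under 0.05, 3 were higher, Col5a1, Col5a3 and Col5a2 (4.27% of all genes tested were called higher so), and 0 were lower (3.99% of all genes). DESeq2 and limma-voom also called 0 of 21 after adjustment, with 1 and 0 at an unadjusted p under 0.05. The smallest p was that of Col5a1, with a log2 fold change of 2.83 (SE 1.09, unadjusted p 0.0328, adjusted p 0.586). Col5a3 followed at 2.13 (SE 0.882, adjusted p 0.586) and Col5a2 at 2.43 (SE 1.03, adjusted p 0.586). Col12a1 had the largest fitted difference of the 21, 3.10 (SE 1.35, adjusted p 0.586), and Col1a1 stood at 2.67 (SE 1.27, adjusted p 0.586).

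Type IV chains differed less between DD and WT, at 1.18 (SE 0.561, adjusted p 0.586) for Col4a1 and 1.11 (SE 0.485, adjusted p 0.586) for Col4a2. Col4a5 stood at 0.024 (SE 0.351, adjusted p 0.983), Col7a1 at -0.023 (SE 0.379, adjusted p 0.985) and Col4a6 at -0.31 (SE 0.553, adjusted p 0.841). The median log2 fold change was 1.79 over the 21 tested collagens, 2.43 over the fibrillar and 0.57 over the basement membrane genes, beside 0.016 over all genes tested. For 4 of 21 tested collagens, Col5a1, Col5a3, Col6a3 and Col4a2, both DD libraries were above both WT libraries, as for 18.1% of all genes tested, and for 0 both were below (19.7% of all genes).

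This difference rested on DD 2. Without it, 12 of 21 tested collagens had a fitted change above 0 (50% of all genes) in place of 19 (51.7% of all genes), the median was 0.097 and the fibrillar median 0.17. Without DD 1 the fibrillar median was 3.30. When genes with low counts were left in, 13 collagens were called by edgeR in place of 0, beside 1.99% of all genes. With a block for the library number within the knockout groups, added after seeing the data, 5 were called (Col5a1, Col5a2, Col5a3, Col6a3 and Col12a1, beside 0.441% of all genes), with a fibrillar median of 1.65. That block takes the gap between knockout libraries numbered 1 and 2 out of the error by its construction, so its p-values do not carry that spread.

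DD + rDKK3 was compared with DD to ask what addition of the protein does in knockout acini. Collagen levels differed little between these groups beside the spread within them. At an adjusted p under 0.05, 0 of 21 tested collagens were called by edgeR, beside 0.0% of all genes tested, and at an unadjusted p under 0.05 also 0 higher (0.597% of all genes) and 0 lower (1.38% of all genes). DESeq2 and limma-voom called 0 at either threshold. The largest fitted difference was that of Col7a1, 0.69 (SE 0.373, adjusted p 1.00), the only tested collagen with both treated libraries above both untreated ones (15.1% of all genes tested). Col18a1, at -0.39 (SE 0.303, adjusted p 1.00), and Col4a5, at -0.19 (SE 0.348, adjusted p 1.00), had both treated libraries below both untreated ones (14.4% of all genes tested). Those shares of the members, 1 and 2 of 21, are below the shares of all genes.

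The fibrillar collagens had fitted changes between 0.11 (Col5a3, SE 0.80) and 0.41 (Col1a1, SE 1.17) in DD + rDKK3 against DD, with a median of 0.26. Col6a3 stood at 0.51 (SE 0.923), Col4a1 at 0.12 (SE 0.551) and Col6a2 at -0.095 (SE 0.976), all with an adjusted p of 1.00. SEs near 1 on the log2 scale leave room for differences of 2-fold and more in either direction. The median was 0.14 over the 21 tested collagens and -0.0028 over all genes tested. Without DD 1 the fibrillar median was -0.62 and 3 of 21 tested collagens lay above 0. Without DD + rDKK3 2 it was -1.35, and without DD 2 it was 2.60, so that without a block the direction turned on 1 library in either group. Libraries of the same number in these 2 groups deviated together, although no shared animal is named. Without both libraries numbered 2, the fibrillar median was 1.02 and 18 of 20 tested collagens lay above 0 (51.2% of all genes). With the block for the number within the knockout groups it was 0.54, and 18 of 21 lay above 0 (50.7% of all genes), in place of 16 (49.5%). At an unadjusted p under 0.05, 4 were then higher, Col1a1, Col5a1, Col6a3 and Col12a1 (0.889% of all genes), and 0 were called after adjustment.

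**Figure D5:**
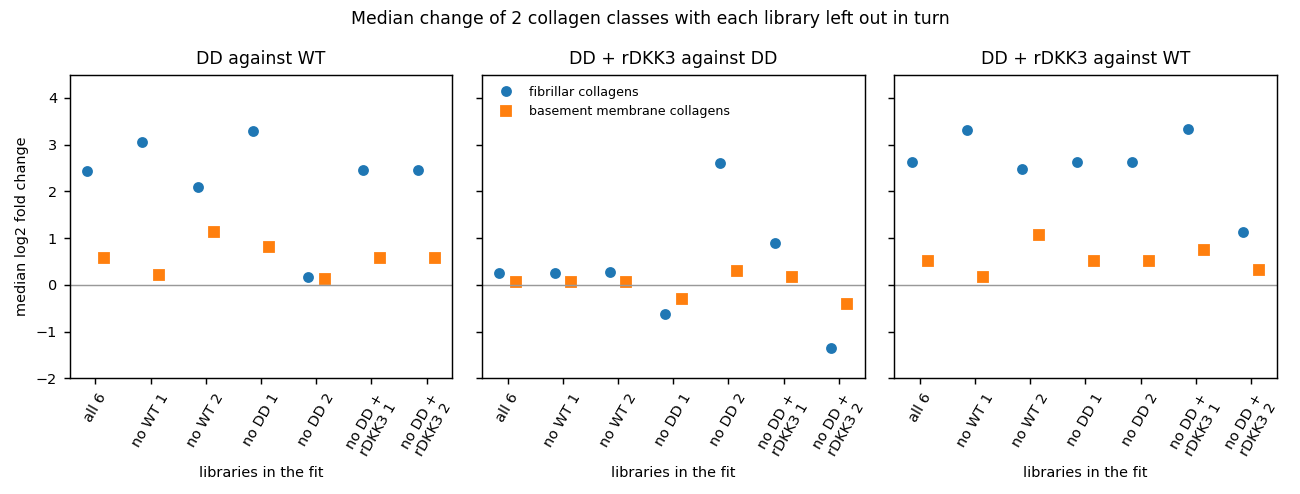
Median fitted log2 fold change of the fibrillar (circles) and basement membrane (squares) collagens tested, with all 6 libraries and with each library left out in turn, in the 3 comparisons. The fibrillar median of DD against WT drops from 2.43 to 0.17 without DD 2, and that of DD + rDKK3 against DD lies between -1.35 and 2.60.

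DD + rDKK3 was also set against WT. The same interstitial genes stood highest: Col12a1 at 3.55 (SE 1.36, adjusted p 0.321), Col5a1 at 3.10 (SE 1.09, adjusted p 0.321), Col1a1 at 3.08 (SE 1.29, adjusted p 0.323) and Col6a3 at 2.88 (SE 1.03, adjusted p 0.321). At an adjusted p under 0.05, 0 of 21 tested collagens were called by edgeR, beside 0.0475% of all genes tested. At an unadjusted p under 0.05, 7 were higher (Col1a1, Col5a1, Col5a2, Col5a3, Col4a2, Col6a3 and Col12a1, beside 7.34% of all genes) and 0 lower (8.0% of all genes). DESeq2 and limma-voom called 0 after adjustment, with 3 and 0 at an unadjusted p under 0.05. For 10 of 21 both treated libraries were above both WT libraries (27.9% of all genes tested) and for 0 below (27.1%), and 18 of 21 had a fitted change above 0 (51.6% of all genes). The median was 1.84 over the tested collagens, 2.62 over the fibrillar and 0.51 over the basement membrane genes, beside 0.017 over all genes. Without DD + rDKK3 2 the medians of all tested and of fibrillar collagens were 0.56 and 1.12. This comparison shares the treated libraries with the one above and the WT libraries with DD against WT, so the 3 are not independent. With low-count genes left in, 14 collagens were called, beside 2.97% of all genes. With the block within the knockout groups 8 were called (Col1a1, Col1a2, Col5a1, Col5a2, Col5a3, Col6a1, Col6a3 and Col12a1, beside 0.522% of all genes).

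The genes that make, export and bind collagen were described from lists chosen with earlier results of these data known. In the edgeR fit with all 6 libraries, the filter on low counts and no block, 0 of them were called in any comparison. Of the 19 hydroxylation and folding genes, 13 had a fitted change above 0 in DD against WT (51.7% of all genes tested), and 1 was lower at an unadjusted p under 0.05 (3.99% of all genes). Their median was 0.14, which became -0.22 without DD 2 and -0.0013 without WT 2. P4hb, the shared subunit of prolyl 4-hydroxylase, stood at 1650 and 1270 CPM for WT and 998 and 1260 for DD, and Ppib, a proline isomerase, at 438 and 408 for WT and 326 and 416 for DD. Neither was highest in DD 2. DD 2 and DD + rDKK3 2 were nevertheless the 2 highest libraries for 9 of the 19 (10.5% of all genes tested). One of the 9, Serpinh1, stood at 71.4 and 57.5 CPM for WT, 50.5 and 180 for DD, and 59.0 and 141 for DD + rDKK3. Another, P4ha3, passed the filter only through those 2 libraries (38 and 68 counts, at most 5 elsewhere), so its direction is no support. P3h4, a partner of lysyl hydroxylation, had a log2 fold change of -0.55 (SE 0.20) and P3h1, a prolyl 3-hydroxylase, 1.05 (SE 0.498). P4hb and Ppib also serve other secreted proteins, of which acinar cells make many.

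Of the 6 procollagen export genes, all had a fitted change above 0 in DD against WT (51.7% of all genes), with a median of 0.19, 0.10 without WT 1 and 0.49 without WT 2. At an unadjusted p under 0.05, 2 were higher (4.27% of all genes). These were Sec23a (0.51, SE 0.187), of the COPII coat, and Creb3l2 (0.54, SE 0.224), a transcription factor of the secretory pathway. Mia3, the receptor that loads procollagen into transport carriers, stood at 80.1 and 118 CPM for WT and 125 and 114 for DD, and Mia2 at 127 and 194 for WT and 184 and 150 for DD. The export genes summed to 289 and 397 CPM for WT, 407 and 365 for DD, and 432 and 439 for DD + rDKK3. DD 2 and DD + rDKK3 2 were the 2 highest libraries for 2 of the 6, Sec23a and Creb3l2 (10.5% of all genes tested).

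Of the 14 cleavage and cross-linking genes, 11 were tested, all with a fitted change above 0 in DD against WT (51.7% of all genes), a median of 1.43 and 2 higher at an unadjusted p under 0.05 (4.27% of all genes). Lox, the oxidase that starts cross-links between collagen molecules, stood at 41.0 and 13.4 CPM for WT, 41.6 and 188 for DD, and 65.1 and 226 for DD + rDKK3, with a log2 fold change of 2.09 (SE 0.854) in DD against WT. Bmp1, the protease that removes the C-propeptide of procollagen, stood at 11.0 and 9.48 CPM for WT, 13.0 and 34.3 for DD, and 13.5 and 34.4 for DD + rDKK3. Loxl4, a relative of Lox, had the smallest p of the list, at 1.01 (SE 0.393). Without DD 2 the median of the list was 0.071.

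The 11 fibril-associated matrix genes had a median of 1.90 in DD against WT, which became -0.46 without DD 2 and 0.99 without WT 2. All 11 were above 0 (51.7% of all genes) and 1 was higher at an unadjusted p under 0.05 (4.27% of all genes). Among the 11, Fmod passed the filter only through DD 2 and DD + rDKK3 2 (44 and 83 counts, at most 3 elsewhere), so its direction is no support. Sparc, a collagen-binding matrix protein, stood at 147 and 130 CPM for WT, 94.8 and 435 for DD, and 120 and 334 for DD + rDKK3, and Fn1, which encodes fibronectin, at 86.5 and 24.0, 43.9 and 287, and 73.6 and 239. Fbn1 (fibrillin) stood at 2.63 (SE 0.967) and Bgn (biglycan) at 2.07 (SE 0.913). Of these 11 genes, Dcn, Lum, Fbn1 and Postn are also in the fibroblast marker list above.

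The 8 tested of 9 basement membrane partners all had a fitted change above 0 in DD against WT (51.7% of all genes), and 2 were higher at an unadjusted p under 0.05 (4.27% of all genes). Their median was 0.40, 0.28 without DD 2, 0.18 without WT 1 and 0.80 without WT 2. Lamc1, the laminin chain shared by most laminins, stood at 39.3 and 64.8 CPM for WT, 95.8 and 89.4 for DD, and 78.7 and 96.5 for DD + rDKK3, so that all 4 knockout libraries were above both WT libraries, with a log2 fold change of 0.83 (SE 0.243). Nid1, the linker of laminin and type IV networks, stood at 11.1 and 17.4 CPM for WT and 21.5 and 37.3 for DD, with 1.03 (SE 0.334). Lama5, the most abundant of the list, lay within the WT range in DD, at 112 and 92.5 CPM. Of the 8 tested of 10 collagen receptors, 6 had a fitted change above 0 (51.7% of all genes), with a median of 0.36, 0.20 without DD 1 and 0.35 without DD 2, and 1 was higher at an unadjusted p under 0.05 (4.27% of all genes). Among the 6, Itga11 passed the filter only through DD 2 and DD + rDKK3 2 (24 and 44 counts, at most 10 elsewhere), so its direction is no support. Itgb1, the integrin chain shared by collagen-binding integrins, stood at 464 and 420 CPM for WT and 453 and 418 for DD. Ddr1, the epithelial collagen receptor kinase, stood at 94.3 and 78.3 for WT and 106 and 89.9 for DD. Ddr2, the mesenchymal one, stood at 3.54 and 3.02 CPM for WT, 4.31 and 23.9 for DD, and 6.18 and 19.0 for DD + rDKK3, with a log2 fold change of 2.10 (SE 0.822), and Mrc2, a collagen uptake receptor, at 2.23 (SE 0.982). Gp6, the platelet receptor, had 0 counts in all 6 libraries.

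In DD + rDKK3 against DD the medians of the lists were 0.0040 for hydroxylation and folding, 0.18 for export, 0.021 for cleavage and cross-linking, 0.14 for fibril-associated matrix, -0.00074 for basement membrane partners and -0.014 for receptors. These turned on single libraries too, except that of export, which lay between 0.13 and 0.26 with any 1 library left out. Without DD 2 the medians were, in the same order, 0.31, 0.13, 1.19, 2.53, 0.27 and -0.0089. Without DD + rDKK3 2 they were -0.22, 0.13, -0.98, -1.23, -0.21 and -0.55. All 6 export genes had a fitted change above 0 in the fit with all libraries (49.5% of all genes), with 0 at an unadjusted p under 0.05, and Itga2, an integrin chain named after its values were seen, was the only gene of the 6 lists at an unadjusted p under 0.05, with a log2 fold change of -0.81 (SE 0.332, adjusted p 1.00).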

How the data were processed

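RNA of 6 day 3 cultures was sequenced from strand-specific, paired-end libraries. The deposited values are raw counts per gene, made by the authors by alignment with STAR 2.7.9a to GRCm39 with GENCODE M32 and union-mode counting of exons with secondary alignments ignored, before normalisation. Replicates were not pooled. 92 spike-in rows with 0 counts were left out.

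From these counts, genes were kept by filterByExpr (minimum count 10, minimum total 15) in edgeR 4.0.16 (R 4.3.3), scaled by TMM and tested under a quasi-likelihood model of 3 group means, with all 6 libraries in it and no block. The fit had 3 residual and 4.63 prior degrees of freedom. P-values are two-sided, adjusted by Benjamini-Hochberg over 14738 genes, and called under 0.05. SEs were derived from the fold change and its F value. CPM used TMM-scaled totals, log2 CPM a prior count of 2, and RPKM and promoters GENCODE M39 on GRCm39, in which all 44 members had an exon length. Shares carry exact 95% Clopper-Pearson intervals. DESeq2 1.42.0, limma-voom 3.58.1, other scalings, no filter, a replicate block and left-out libraries were alternatives, and a block within the knockout libraries, with WT set against the average of both numbers, was added after seeing the data.

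The members and lists were chosen with earlier results of these data known. Named in full were up to 5 of the most abundant tested members of the fibrillar and basement membrane classes, up to 3 of the others, and the 3 with the smallest p in each comparison. Of each accompanying list the 2 most abundant genes and the 2 with the smallest p in DD against WT were named. Col5a3, Col27a1 and others outside these rules were named after their values were seen.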

Additional observations from a re-analysis of the deposited data

How the results depend on the processing

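No collagen was called in any comparison with DESeq2, limma-voom, DESeq2 size factors, library size alone, a replicate block over all groups or a library left out. With no filter on low counts, 13 collagens were called in DD against WT, 14 in DD + rDKK3 against WT and 0 in DD + rDKK3 against DD, among 26506 genes with 528, 788 and 73 calls in all. The cause was not tested. The basement membrane medians were then -0.095 and -0.145 in DD against WT and DD + rDKK3 against WT, with Col4a3 and Col4a4 entering them. With library size alone, the median over all genes was 0.219 for DD against WT and 0.18 for DD + rDKK3 against WT. Col7a1 in DD against WT stood at 0.074 with limma-voom, 0.144 with library size alone and 0.023 with no filter. In DD + rDKK3 against DD, limma-voom gave 0.084 for Col16a1, -0.031 for Col4a6 and 0.377 for Col6a2, and library size alone -0.0077 for Col4a6.

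The replicate numbers did not pair the samples by the labels. Same-numbered libraries deviated together for DD and DD + rDKK3 (r = 0.65 across genes) and not for WT and DD (-0.387) or WT and DD + rDKK3 (-0.247). The replicate block called 0 collagens and gave a fibrillar median of 1.38 and 0.018 for Col7a1 in DD against WT. In DD + rDKK3 against DD it gave a fibrillar median of 0.39, 0.023 for Col16a1 and 0.119 for Col6a2, and the fibrillar median of DD + rDKK3 against WT was 1.98. A block within the Dkk3-null libraries alone, in which WT is set against the average of both numbers, was added after seeing the data. It called 5 collagens in DD against WT, 0 in DD + rDKK3 against DD and 8 in DD + rDKK3 against WT. The tested and fibrillar medians were then 1.05 and 1.65, 0.308 and 0.542, and 1.43 and 2.25 in these comparisons. It gave 0.029 for Col16a1 and 0.246 for Col6a2 in DD + rDKK3 against DD. By its construction the spread between knockout libraries numbered 1 and 2 leaves the error.

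With libraries left out, medians in DD against WT lay between 0.097 and 2.66 for tested, 0.164 and 3.30 for fibrillar and 0.133 and 1.12 for basement membrane collagens. In DD + rDKK3 against DD they lay between -1.26 and 2.30 for tested and -1.35 and 2.60 for fibrillar collagens, and in DD + rDKK3 against WT between 0.161 and 1.06 for basement membrane collagens. A group left with 1 library was assumed to vary like the others. No gene named here was called. Of 20 named genes, 13 took both signs in DD against WT, 17 in DD + rDKK3 against DD and 4 in DD + rDKK3 against WT. In DD against WT the values spanned -0.482 to 1.39 for Col13a1, -0.677 to 2.64 for Col15a1, -0.124 to 1.3 for Col16a1, -0.223 to 0.828 for Col18a1, -0.405 to 3.69 for Col1a1, -0.155 to 3.94 for Col1a2, -0.811 to 3.32 for Col3a1, -0.432 to 0.782 for Col4a5, -0.675 to 0.286 for Col4a6, -0.46 to 2.66 for Col6a1, -0.718 to 2.72 for Col6a2, -0.507 to 0.799 for Col7a1 and -0.257 to 6.78 for Col8a1. In DD + rDKK3 against DD they spanned -1.64 to 3.25 for Col12a1, -0.347 to 0.126 for Col13a1, -1.47 to 2.55 for Col15a1, -0.671 to 0.859 for Col16a1, -1.44 to 3.48 for Col1a1, -1.5 to 3.04 for Col1a2, -1.65 to 3.17 for Col3a1, -0.64 to 1.08 for Col4a1, -0.673 to 0.782 for Col4a2, -0.572 to 0.459 for Col4a6, -1.35 to 2.6 for Col5a1, -1.3 to 2.45 for Col5a2, -1.13 to 1.9 for Col5a3, -1.5 to 2.3 for Col6a1, -1.69 to 2.44 for Col6a2, -1.26 to 2.51 for Col6a3 and -1.82 to 2.66 for Col8a1. In DD + rDKK3 against WT they spanned -0.559 to 1.31 for Col13a1, -0.611 to 0.436 for Col18a1, -0.614 to 0.596 for Col4a5 and -0.871 to 0.327 for Col4a6. The 18 collagens with few counts, at most 46 each, did not pass the filter with all 6 libraries. With no filter, 0 of them were called.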

Other observations

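The titles of DD and DD + rDKK3 libraries with the same number share a name, but no shared animal is named. DD + rDKK3 1 stood above DD 1 for 19 of 21 tested collagens and 7 of 7 fibrillar ones, beside 50.2% of all genes tested, with folds of 3.13 for Col1a1, 2.61 for Col3a1, 2.02 for Col5a1 and 1.26 for Col4a1. DD + rDKK3 2 stood above DD 2 for 13 of 21 tested collagens and 6 of 7 fibrillar ones, beside 51.0% of all genes, with folds of 1.21 for Col1a1, 1.01 for Col3a1, 1.10 for Col5a1 and 1.02 for Col4a1. Col7a1 stood 1.68 and 1.52 times higher with the protein in the 2 pairs, and Col18a1 at 0.742 and 0.787 times its level without it. Each of these folds compares a library with a library and carries no replicate error.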
